A study of Homo sapiens with 2 samples.

Results

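Serine synthesis and folate one-carbon metabolism were examined in HepG2, a cell line derived from a human liver carcinoma, through the transcripts of 10 enzymes: PHGDH, PSAT1, PSPH, SHMT1, SHMT2, MTHFD1, MTHFD2, MTHFD1L, ALDH1L1 and ALDH1L2. The cells had been exposed for 18 h to the ethanolic extract of the polyherbal preparation Padma 28 at 218 μg/ml, or to the solvent alone (0.9% EtOH), both in DMEM with 10% FCS. The methods of the study describe this serum as dialyzed. For each treatment 3 cultures were pooled before RNA isolation and 1 Affymetrix Human Genome U133 Plus 2.0 array was hybridised, so that all comparisons set 1 array against 1 array, with no spread between cultures, no test and no p-value. The genes were chosen by name as the enzymes of these steps, with earlier results of these data known. Shares of all genes set beside them are therefore descriptions and no test of the choice. They are 10 of the 19775 genes that have a probe set of their own on the array. Of the 27 probe sets annotated to them, 22 belong to the member alone and 5 are shared with other genes.

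Serine is made in the cytosol from a glycolytic intermediate. PHGDH oxidises phosphoglycerate, PSAT1 transfers an amino group onto the product and PSPH removes the phosphate. Serine hydroxymethyltransferases then pass a carbon of serine to tetrahydrofolate and leave glycine, SHMT2 in the mitochondria and SHMT1 in the cytosol. In the mitochondria MTHFD2 oxidises the carbon unit and MTHFD1L releases it as formate, in the cytosol the trifunctional MTHFD1 takes formate up again for purine, thymidylate and methyl group synthesis, and ALDH1L1 (cytosol) and ALDH1L2 (mitochondria) oxidise the carbon unit to carbon dioxide with formation of NADPH. Several of these genes are known targets of ATF4, the transcription factor of the amino acid response in human cells.

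The expression values are on the log2 scale of GCRMA, a method that quantile-normalizes the probes of both arrays before they are summarized. The deposited values of both arrays, each sorted by size, differed by at most 0.10. A difference is the log2 value with Padma 28 minus that with EtOH. For each gene the own probe set with the highest mean value was taken. Values of at least 4.35 on the Padma 28 array and 4.25 on the EtOH array were taken as above background, which is 2 log2 units over the most frequent value of the array. The hepatocyte-derived markers were measured far above this limit, with ALB at 16.52 with Padma 28 and 16.62 with EtOH and AFP at 15.73 and 15.96 on the same arrays. All 8 of them had differences below 0 (median -0.20, lowest -0.55), and their part in the results was not tested. Of 5 markers of blood, fibroblasts and endothelium, PTPRC, COL3A1 and VWF were below background on both arrays, while COL1A1 (6.71 with Padma 28, 6.74 with EtOH) and PECAM1 (6.81 and 6.49) were above it on their brightest probe set. The other probe sets of COL1A1 and PECAM1 were below it. The linear values of these 5 markers summed to 238 with Padma 28 and 219 with EtOH. The median difference of the 18 hybridisation spike-ins was -0.09. In RNA from whole cultures, a lower share of cells with a transcript and less of it per cell cannot be told apart.

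Of the 10 enzymes, MTHFD2 and ALDH1L1 were more than 2-fold higher with Padma 28 and none was more than 2-fold lower. Over all 19775 genes, 0.875% were more than 2-fold higher and 0.384% more than 2-fold lower, and among the 10361 genes above background on at least 1 array 1.57% were higher by that much. At a lower line of 1.5-fold, 5 of the 7 enzymes above background on both arrays were higher (PHGDH, PSAT1, SHMT2, MTHFD2 and ALDH1L1), against 6.05% of the 10186 genes above background on both arrays, and none was lower by as much. Over all genes, whether above background or not, 3.61% were higher by that much. The median difference of the 10 enzymes was 0.71 (0.42 with ALDH1L2 at its bound against background), ranging from -0.07 to 1.59. It counts SHMT1 and MTHFD1L, which were below background on both arrays, and the lowest value is that of SHMT1. The median of all genes was -0.02 and that of the genes above background 0.06. As 7 of the 10 were above background on both arrays, ALDH1L2 on the Padma 28 array only and SHMT1 and MTHFD1L on neither with a probe set of their own, the values near 0 of SHMT1 and MTHFD1L are no measure of these transcripts.

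**Figure D1:**
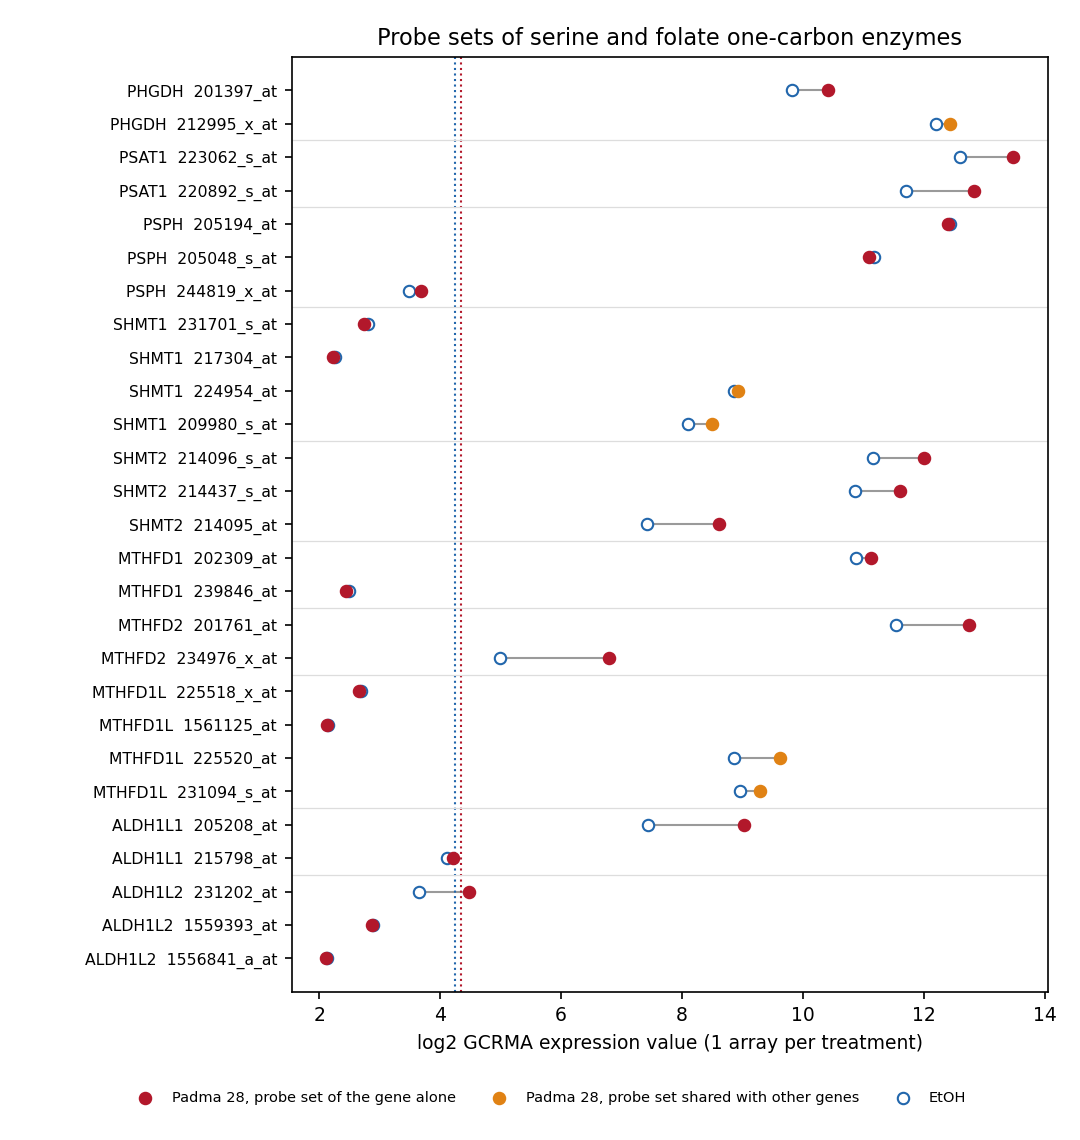
Log2 expression value of each of the 27 probe sets of the 10 enzymes (rows, with gene and probe set) on the Padma 28 array (filled) and on the EtOH array (open), 1 array per treatment, where orange marks the 5 probe sets shared with other genes and the dotted lines are the background limits of the Padma 28 array (4.35) and the EtOH array (4.25). The widest gaps among values above both limits are those of MTHFD2 and ALDH1L1, and both bright probe sets of PSPH nearly coincide.

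To show the DNA that precedes members with higher transcript levels, the 250 bases upstream of the RefSeq start of PHGDH, PSAT1 and MTHFD2 are given 5′ to 3′ on the plus strand (GRCh38.p14). Capitals mark any match, on either strand, to the C/EBP-ATF response element TGATGNAAN (which the stricter form TGATGCAA overlaps), the antioxidant response element core TGANNNNGC or the xenobiotic response element core GCGTG. These are elements through which ATF4, Nrf2 and the aryl hydrocarbon receptor are known to act.
PHGDH, chr1:119711684-119711933: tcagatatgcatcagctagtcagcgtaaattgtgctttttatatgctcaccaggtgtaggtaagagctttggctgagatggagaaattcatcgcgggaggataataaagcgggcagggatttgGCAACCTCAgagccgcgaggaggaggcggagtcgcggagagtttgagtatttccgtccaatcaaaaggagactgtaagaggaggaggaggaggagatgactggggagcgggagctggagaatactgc
PSAT1, chr9:78296875-78297124: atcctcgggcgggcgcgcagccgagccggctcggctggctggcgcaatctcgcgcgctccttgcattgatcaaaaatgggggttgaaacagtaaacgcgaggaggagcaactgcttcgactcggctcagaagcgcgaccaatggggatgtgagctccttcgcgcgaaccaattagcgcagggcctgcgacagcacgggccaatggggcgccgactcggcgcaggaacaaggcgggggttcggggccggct
MTHFD2, chr2:74198365-74198614: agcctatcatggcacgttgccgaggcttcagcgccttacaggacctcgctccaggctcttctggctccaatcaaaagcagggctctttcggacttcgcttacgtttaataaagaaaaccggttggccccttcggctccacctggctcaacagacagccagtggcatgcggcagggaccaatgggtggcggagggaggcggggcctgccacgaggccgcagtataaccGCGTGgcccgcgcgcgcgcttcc

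In these stretches PHGDH holds a match to the antioxidant core, MTHFD2 a match to the xenobiotic core and PSAT1 no match. The full windows reach 250 bases before to 50 bases after a start. Such windows were at hand for 7 of the 10 enzymes (11 windows), and not for PSPH, SHMT2 and ALDH1L2. The response element TGATGNAAN occurred in 1 of the 7 genes, MTHFD1L, in 3 overlapping windows of nearby starts that share 1 site. The site begins at -129 and -90 from 2 of these starts and at base 25 after another, and is given with its flanks on the plus strand, the element in capitals.
MTHFD1L, chr6:150866347-150866376: ccgccggctcTGATGCAATcgcgccgggcg

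This element was present in 3.61% of the 35116 RefSeq windows of the same length and its stricter form TGATGCAA in 0.866%. The antioxidant core was found in 5 of the 7 genes (MTHFD1, MTHFD1L, MTHFD2, PHGDH and SHMT1), or 5 of the 11 windows, against 41.8% of all windows. The xenobiotic core was found in 3 of the 7 (MTHFD1L, MTHFD2 and PSAT1, the last at base 39 after the start), or 5 of the 11 windows, of which 3 are overlapping ones of MTHFD1L, against 36.5% of all windows. None of these letters were found in either window of ALDH1L1. Both windows belong to starts inside the gene, at chr3:126180586 and chr3:126181186 on the minus strand. The outermost start of ALDH1L1, at chr3:126197945, had no window, so its promoter there was not scanned. The windows of MTHFD1L likewise belong to starts other than its outermost one. Matches of this kind are descriptions of the sequence, and binding was not measured.

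Among the enzymes of serine synthesis, the first and the second step were higher with Padma 28 and the last was at the same level on both arrays. PHGDH, the entry enzyme, had a log2 value of 10.42 with Padma 28 and 9.82 with EtOH on its own probe set, a difference of 0.60 or 1.51-fold. A further probe set, annotated to PHGDH together with MZT2A and MZT2B, was at 12.44 with Padma 28 and 12.21 with EtOH, a smaller difference of 0.23. The PHGDH value at 1.5-fold therefore rests on a single probe set.

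PSAT1, the transaminase, was higher on both of its probe sets. The brighter one was at 13.48 with Padma 28 and 12.60 with EtOH, which is 1.84-fold, and the other at 12.83 and 11.70 on the same arrays, which is 2.20-fold. The 2-fold line thus falls between the probe sets of the same gene, which differed from each other by 0.26. PSPH, the phosphatase, was at 12.40 with Padma 28 and 12.44 with EtOH on its brightest probe set, a difference of -0.04. A second PSPH probe set was at 11.10 with Padma 28 and 11.18 with EtOH, a difference of -0.08, and the remaining one was below background on both arrays. The bright probe sets of PSPH differed from each other by 0.04, so that both gave values close to 0.

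Between the serine hydroxymethyltransferases, the mitochondrial form was higher with Padma 28 on every probe set. SHMT2 was at 12.01 with Padma 28 and 11.17 with EtOH on the brightest of 3, a difference of 0.84 or 1.79-fold. The next was at 11.60 with Padma 28 and 10.86 with EtOH, a difference of 0.74, and the dimmest at 8.61 and 7.42 on the same arrays, a difference of 1.19 or 2.28-fold. As for PSAT1, the brightest probe set of SHMT2 stayed just under the 2-fold line and another lay above it.

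SHMT1, the cytosolic form, could be read only on probe sets that the annotation gives to SHMT1 and to MIR6778, a miRNA gene within the SHMT1 locus. One was at 8.93 with Padma 28 and 8.86 with EtOH, a difference of 0.07, and the other at 8.50 and 8.10 on the same arrays, a difference of 0.40. Both probe sets of SHMT1 alone were below background on both arrays, with differences of -0.07 and -0.03. On each of the shared SHMT1 probe sets the difference was smaller than on the lowest of the SHMT2 probe sets, 0.74.

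MTHFD2, the mitochondrial dehydrogenase and cyclohydrolase, had the highest difference among the own probe sets above background on both arrays. The brighter MTHFD2 probe set was at 12.74 with Padma 28 and 11.54 with EtOH, a difference of 1.21 or 2.31-fold, and it ranked 90 from the top among the 10361 genes above background on at least 1 array. A second, much dimmer MTHFD2 probe set of a type that can bind related transcripts was at 6.80 with Padma 28 and 4.99 with EtOH, a difference of 1.81 or 3.50-fold. Both lay above the 2-fold line, yet they differed from each other by 0.60. For 4912 genes with at least 2 probe sets above background, the gap between the differences of the brightest pair had a median of 0.14 and was at most 0.59 in 95% of them.

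MTHFD1L, the mitochondrial formate-releasing enzyme, was read on a pair of probe sets annotated also to the transcribed pseudogenes LOC101928195 and LOC100996643. The first was at 9.63 with Padma 28 and 8.86 with EtOH, a difference of 0.77 or 1.70-fold, and the second at 9.29 and 8.95 on the same arrays, a difference of 0.34 or 1.26-fold. Both were higher with Padma 28 without passing 2-fold, and the share of the pseudogenes in these values was not tested. The probe sets of MTHFD1L alone were below background on both arrays. MTHFD1, the cytosolic trifunctional enzyme, was at 11.13 with Padma 28 and 10.88 with EtOH, a difference of 0.25 or 1.19-fold, which is close to the upper quartile (0.25) of the genes above background. Its other probe set was below background on both arrays.

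ALDH1L1, the cytosolic dehydrogenase of formyl-tetrahydrofolate, had the largest difference of the 7 enzymes above background on both arrays, each on its brightest own probe set. It was at 9.03 with Padma 28 and 7.44 with EtOH, a difference of 1.59 or 3.01-fold, and it ranked 34 among the genes above background on at least 1 array. A second ALDH1L1 probe set was just under the background limits, at 4.21 with Padma 28 and 4.11 with EtOH. On the arrays, the size of the ALDH1L1 difference thus rests on 1 probe set. The study also reported higher ALDH1L1 by qPCR in independent experiments, which are not part of the values used here. On the arrays, the mitochondrial counterpart ALDH1L2 was at 4.47 with Padma 28, slightly above background, and at 3.65 with EtOH, below it. Against the background limit this is at least 1.17-fold higher. The other 2 probe sets of ALDH1L2 were below background on both arrays, with differences of -0.01 each.

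**Figure D2:**
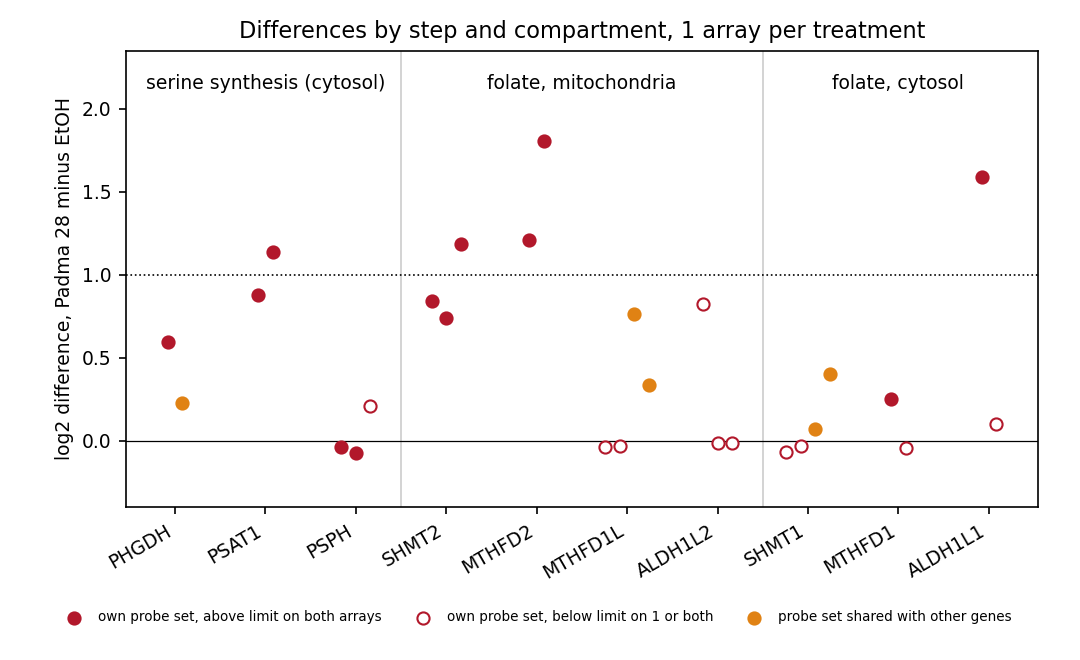
Log2 difference, Padma 28 minus EtOH (vertical axis), of every probe set of the 10 enzymes, grouped by step and compartment, 1 array per treatment. Filled red points are own probe sets above background on both arrays, open points are below it on 1 or both, orange points are shared with other genes, and the dotted line marks 2-fold. All 3 SHMT2 and both MTHFD2 probe sets lie at 0.74 or above, MTHFD1 and the shared probe sets of SHMT1 at 0.40 or below. The shared probe sets of the mitochondrial MTHFD1L lie at 0.77 and 0.34, the lower one below the SHMT1 probe set at 0.40. ALDH1L1 is the cytosolic folate enzyme beyond 2-fold.

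Set side by side, the mitochondrial enzyme had the larger difference in the pair SHMT2 (0.84) and SHMT1 (0.07 and 0.40 on shared probe sets) and in the pair MTHFD2 (1.21) and MTHFD1 (0.25). The MTHFD1L probe sets shared with pseudogenes, at 0.77 and 0.34, were also above MTHFD1 (0.25), the lower one only slightly. For ALDH1L2, of which only the lower limit of 1.17-fold holds, and ALDH1L1 (1.59) the order could not be determined. With 1 array per treatment, the differences between the pairs could not be tested.

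Over the 22 own probe sets, 12 were above background on both arrays. Of these 10 were higher with Padma 28, against 54.3% of the 18367 such probe sets of all genes, and the 2 below 0 were those of PSPH. At least 1 own probe set passed 2-fold upwards for 4 of the enzymes (PSAT1, SHMT2, MTHFD2 and ALDH1L1), against 1.34% of all 19775 genes. That share counts genes whether above background or not. For the 4 enzymes these were 5 probe sets, for which no share of all probe sets is given. None of the own probe sets passed 2-fold downwards. The 9 own probe sets below background on both arrays had differences between -0.07 and 0.21.

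**Figure D3:**
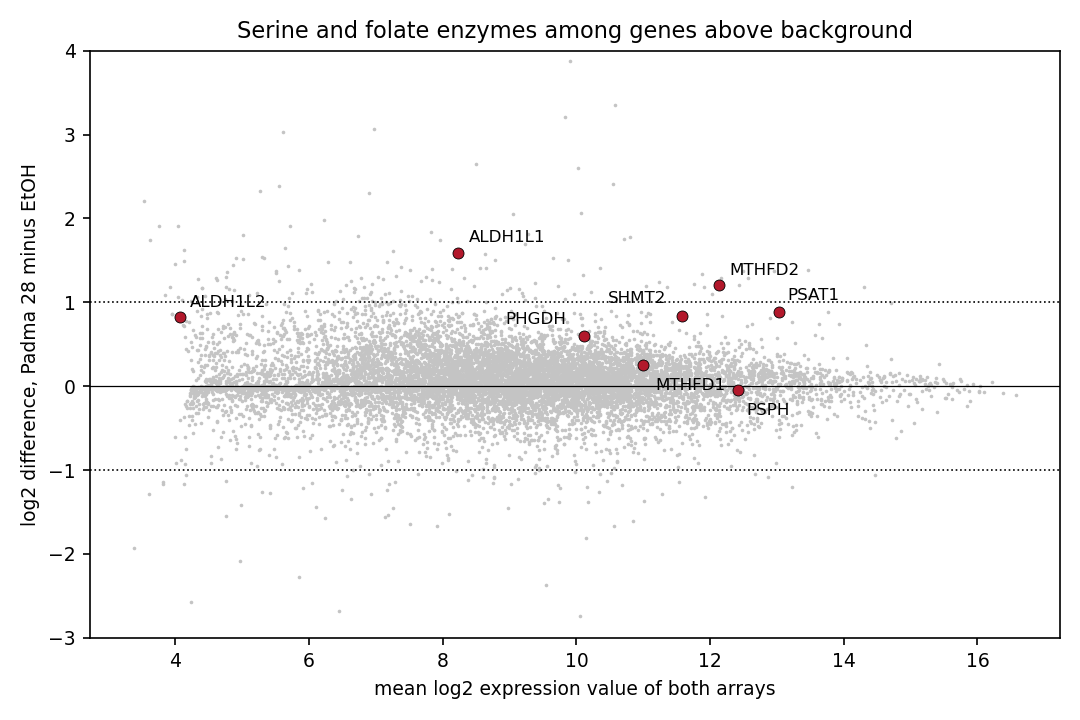
Log2 difference, Padma 28 minus EtOH (vertical axis), against the mean log2 value of both arrays (horizontal axis) for the genes above background on at least 1 array, each point a gene on its brightest own probe set, with dotted lines at 2-fold and 3 genes outside the plotted range. Of the labelled enzymes, ALDH1L1 and MTHFD2 lie above the upper line, PSAT1 and SHMT2 just below it and PSPH at 0. The point of ALDH1L2 rests on an EtOH value below background, and only at least 1.17-fold holds for it.

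RefSeq lists pseudogenes that carry the symbol of a member: 7 of MTHFD2, 4 of PSAT1 and 1 each of PSPH, SHMT1 and MTHFD1. Pseudogenes under other symbols, such as LOC101928195 and LOC100996643 on the shared MTHFD1L probe sets, are not counted. None of the counted pseudogenes has a probe set of its own here, and their share in the values of these members was not tested. ALDH1L1-AS2, an antisense RNA of the ALDH1L1 locus, was below background on both arrays, at 2.18 with Padma 28 and 2.19 with EtOH.

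The other genes of folate metabolism and folate transport did not pass 2-fold. Of 14 that could be measured, 13 were above background on both arrays, 7 were above 0, and the median difference was 0.03. Among all genes above background on at least 1 array, 58.1% were above 0. MTFMT, which formylates the mitochondrial initiator tRNA, was at 7.62 with Padma 28 and 7.08 with EtOH, a difference of 0.54. MTHFD2L, a relative of MTHFD2, was at 8.55 with Padma 28 and 8.06 with EtOH, a difference of 0.49. On the other side of 0 stood the folate receptor FOLR1 (-0.40) and FTCD (-0.31), a folate enzyme of histidine breakdown. Thymidylate synthase TYMS was at -0.04, and the purine enzymes GART and ATIC at 0.29 and 0.13.

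Glycine cleavage and the breakdown of glycine and serine gave a median of 0.06 over 10 measured genes, with none past 2-fold and 5 above 0. GNMT, which methylates glycine, was at 6.41 with Padma 28 and 5.76 with EtOH, a difference of 0.65. Within the glycine cleavage system the aminomethyltransferase AMT was at 0.34 and the glycine decarboxylase GLDC at -0.35. GCAT, which cleaves a breakdown product of threonine into glycine and acetyl-CoA, was at 0.25.

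In the methionine cycle and transsulfuration, 9 of 11 genes were above 0, against the 58.1% of genes above background, and the median was 0.30. The cystathionine gamma-lyase CTH, which releases cysteine, was at 10.52 with Padma 28 and 9.42 with EtOH, which is 2.15-fold, and at 8.25 and 6.52 on its other probe set, which is 3.30-fold. BHMT2, a homocysteine methyltransferase, was at 9.75 with Padma 28 and 8.72 with EtOH, which is 2.04-fold. On its next probe set BHMT2 was at 7.43 and 6.65, which is 1.71-fold. The methionine synthase MTR, which takes its methyl group from folate, was at -0.24.

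Of 10 measured genes of serine use and serine or glycine transport, 7 were above 0 and the median was 0.18 (0.15 with SLC6A9 at its bound). The glycine transporter SLC6A9 was at 4.49 with Padma 28 and at 2.75, below background, with EtOH, so that only at least 1.18-fold holds. Among transporters above background on both arrays, SLC1A4 was at 11.50 with Padma 28 and 10.63 with EtOH, which is 1.83-fold. SLC1A5 was at 12.16 and 11.53 on the same arrays, which is 1.55-fold, and SLC38A2 had the lowest value of the list at -0.27. A list of glycolytic enzymes had a median of -0.10 over 10 genes and none past 2-fold. Beside the steps that lead to phosphoglycerate it holds PGAM1, ENO1 and PKM, which act after the intermediate used by PHGDH. The median is therefore not one of the supplying steps alone. HK2, a hexokinase, had the lowest value of these 10 genes at -0.52, with PFKL at -0.19, PGK1 at -0.17 and PKM at -0.15.

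**Figure D4:**
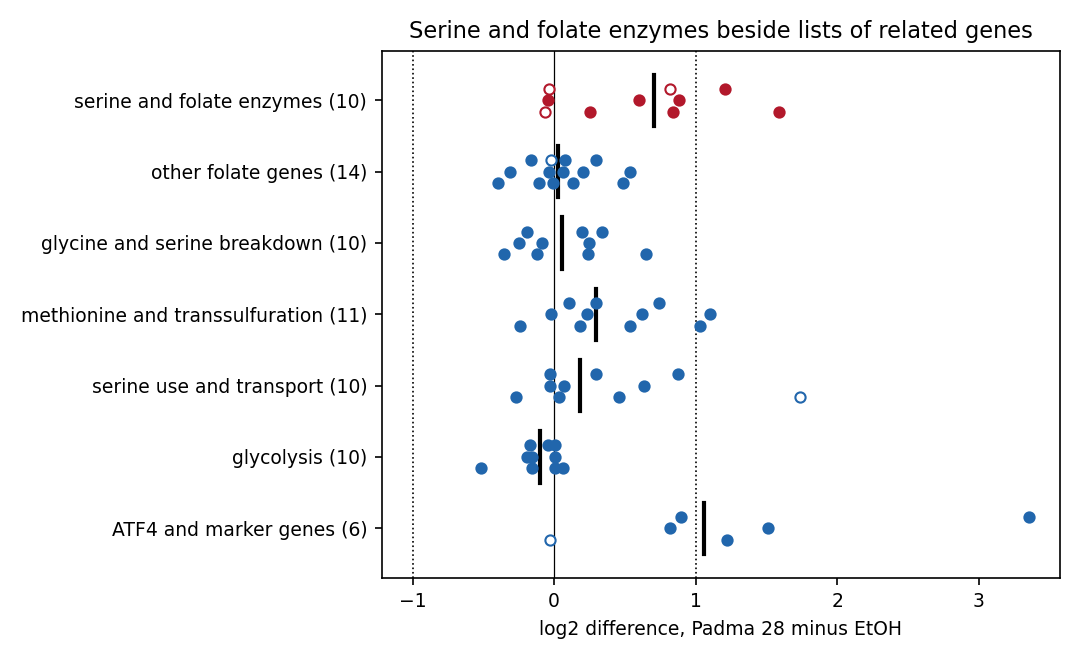
Log2 difference, Padma 28 minus EtOH (horizontal axis), of the genes of 7 lists, with the number of measured genes in brackets, 1 array per treatment. Each point is a gene on its brightest own probe set, open points are below background on 1 or both arrays, a black bar gives the median of each list and the dotted lines stand at 2-fold. The bar of the serine and folate enzymes lies at 0.71, with the open points of SHMT1, MTHFD1L and ALDH1L2 counted. That of the other folate genes lies at 0.03 and that of ATF4 and its marker genes at 1.06.

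ATF4 itself was at 13.31 with Padma 28 and 12.49 with EtOH, a difference of 0.82 or 1.76-fold. Of the 5 marker genes of its response, asparagine synthetase ASNS (3.35), the stress-induced DDIT3 (1.51) and the pseudokinase TRIB3 (1.22) were past 2-fold, SESN2 was at 0.90, and CHAC1 was below background on both arrays. With ATF4 included, the median of these 6 genes was 1.06. On their brightest probe sets PSAT1, SHMT2 and ATF4 lay between 0.82 and 0.88. The other probe sets of PSAT1 (1.14) and SHMT2 (0.74 and 1.19) lay outside this range. So did MTHFD2 (1.21), PHGDH (0.60) and PSPH (-0.04) on their brightest ones. ASNS exceeded the 7 serine and folate enzymes above background on both arrays. With 2 arrays, no relation between ATF4 and the enzymes could be tested.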

How the data were processed

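Gene expression was measured in 2 pooled RNA samples, from HepG2 cells with Padma 28 and with EtOH, with 1 U133 Plus 2.0 array (Affymetrix) per sample. The authors background-corrected, quantile-normalized and summarized the probe intensities with GCRMA and deposited log2 values of 54675 probe sets, without a filter. GCRMA 2.28.0 under R 2.15.1 is given in the submitters' processing notes, whereas the methods of the study name earlier versions and an unspecific filter that was not applied here. Since the probe intensities of both arrays were quantile-normalized, a shift of all transcripts would not be seen. Separately, the low end of the scale of the deposited values is compressed.

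Differences of the deposited log2 values were taken, as in the study. Genes were named from the platform annotation, and the 19735 genes found in RefSeq (GRCh38.p14) kept their symbol. Probe sets of several genes (1801) or of none (11777) represent no gene. The number of arrays limits the precision, and no test was possible. The 10 enzymes and the lists were chosen with earlier results of these data known. All enzymes were named with every probe set, and of the other lists the genes past 2-fold and above background on at least 1 array or, if there were none, up to 4 with the largest differences. Outside this rule, and with their values known, further list genes were named, among them ALB, TYMS, GART, ATIC, MTR, SLC1A4, SLC1A5, SLC38A2, ATF4, SESN2 and CHAC1. A planned comparison of protein sequences was not made here. The counting steps were tested on simulated data. Values were computed in Python 3.11.15 (pandas 2.3.3, numpy 2.4.6), loess curves with statsmodels 0.14.6, and plots with matplotlib 3.10.9.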

Additional observations from a re-analysis of the deposited data

How the results depend on the processing

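With 1 array per treatment, nothing can be said of the spread between cultures, and no replicate could be left out. No paired analysis was possible because each treatment has 1 array. The number of the 10 enzymes more than 2-fold higher was 2. It was 4 with the probe set of the largest difference for each gene. It was 5 when counted as probe sets, for which no share of all probe sets is given. At 1.5-fold it was 6, where the sixth, ALDH1L2, is below background with EtOH and only at least 1.17-fold holds for it. It stayed between 2 and 3 under the other 10 alternatives (median over probe sets, no _s_at and _x_at probe sets, shared probe sets counted, 16 or 64 added to the linear values, median centring, loess with a span of 0.3, repeated quantile normalization, and filters at 2 or 3 log2 units over the most frequent value). Without _s_at and _x_at probe sets PSAT1 has no value and SHMT2 passes 2-fold. None of the alternatives put an enzyme more than 2-fold lower. The median difference of 0.71 became 0.35 with the median over probe sets, which brings in the dim ones, and 0.50 and 0.40 with 16 and 64 added, which by construction shrinks the differences of dim genes. Under the other 8 it was between 0.60 and 0.84. Of 104 values of single enzymes under the alternatives, 14 moved by more than 0.14, the median gap between probe sets of a gene. ALDH1L1 was at 0.84 with the median over probe sets and at 1.30 with 64 added, and PHGDH was at 0.23 with shared probe sets counted. A change of sign occurred for MTHFD1L and SHMT1 (0.77 and 0.07 with shared probe sets counted), PSPH (0.21 on its dim probe set of largest difference) and ALDH1L2 (-0.01 with the median over probe sets). The values near 0 of MTHFD1L (under median centring, loess and repeated quantile normalization) and PSPH (under median centring) also crossed 0, to at most 0.01. Of all genes 173 were higher by more than 2-fold and 76 lower, against 264 and 153 with the largest probe set, 114 and 60 with the median, 97 and 54 with 16 added and 64 and 34 with 64 added.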
